A study of Homo sapiens with 12 samples.

Results

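The change that a PPM1G knockout makes in newly made RNA was set against the change it makes in total RNA, gene by gene, in HCT116, a human colorectal carcinoma cell line. All 12 of the 12 libraries of the series entered the comparison: 3 control (Ctrl) and 3 PPM1G KO libraries of 4sU-seq, and 3 Ctrl and 3 PPM1G KO libraries of RNA-seq. In 4sU-seq, the cells take up 4-thiouridine (here 500 µM for 10 min), and the RNA made in that time is biotinylated, pulled down and sequenced. The sample titles call the control libraries Ctrl_KO and their genotype label reads Ctrl. The treatment of the control cells, the site edited, the number of KO clones and any sharing of cultures between the assays: none of these is given in the labels. Genes were matched by identifier, and 15863 of the 56104 gene IDs had enough counts in both assays to be tested.

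PPM1G, a member of the metal-dependent PPM family, is a phosphatase of the nucleus that acts on serine and threonine. The level of a messenger RNA is set by how fast it is made and how fast it is lost. A short 4sU pulse weighs the first and RNA-seq sees the balance of both, so a change in the ratio of nascent to total RNA marks a gene whose assays moved by different amounts. Transcripts with short half-lives, among them the immediate early genes, are known to follow their synthesis closely, and many carry AU-rich elements in the 3′ UTR that recruit decay factors. Bulk RNA cannot separate fewer expressing cells from less RNA per cell.

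Each level is in CPM, a count scaled to the size of its library within its assay, given for replicates 1, 2 and 3 in that order. A change is a log2 fold of KO over Ctrl ± its standard error, with n = 3 libraries in each group. The ratio change is the nascent change minus the total change, positive where nascent RNA gained on total RNA. Its test was the genotype-by-assay term of a quasi-likelihood model in edgeR, fitted over all 15863 genes, and "called" means a Benjamini-Hochberg adjusted p below 0.05. CPM levels of the assays were scaled separately and were not compared with each other.

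Gene counts per library ran from 79403238 to 101884166 for 4sU-seq and from 30962756 to 42479828 for RNA-seq. KO replicate 2 of 4sU-seq stood apart: the median gene lay 0.47 (log2) from the mean of the other KO libraries, against 0.08 to 0.32 for the remaining 4sU-seq libraries and 0.06 to 0.12 for RNA-seq. Counts of calls by list are therefore given with and without it. The ratio changes of the 64 called genes chosen by the naming rule moved by a median of 0.08 without it and by 0.30 at most (ARAF). They are given with all 12 libraries. Those genes were called with KO replicate 2 in the fit, which favours genes where it lay close to the others. Their moves therefore do not describe genes in general. KO replicates 1 and 2 of RNA-seq differed least, with a chi-square per gene of 1.71, where 1 would be sampling noise and every other RNA-seq pair gave at least 10.5. Colorectal epithelial markers summed to between 1257 and 1988 CPM for 4sU-seq and between 2625 and 3142 CPM for RNA-seq. Leukocyte markers summed to at most 1.78 CPM, endothelial markers to 7.15 to 8.00 CPM in Ctrl and 13.4 to 14.7 in KO 4sU-seq and to at most 1.63 in RNA-seq, and fibroblast markers to 5.05 to 7.46 CPM in Ctrl and 10.5 to 13.7 in KO over both assays. Of the 9 fibroblast markers only COL1A1 had a mean of 1 CPM or more, and of the 6 endothelial markers 2 did. The COL1A1 means in Ctrl and KO were 5.28 and 10.7 CPM in 4sU-seq and 5.08 and 10.2 CPM in RNA-seq. COL6A3, the other fibroblast marker tested, had no called change in either assay. The part of these markers in the results was not tested. Relative to gene counts, the ERCC spike-in of 4sU-seq came to 0.0371% ± 0.00775 (SD, n = 3) for Ctrl and 0.0371% ± 0.0170 for KO (exact permutation p = 1, two-sided; 3 against 3 cannot go below 0.1).

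The targeted gene was lower in both assays. PPM1G (chr2:27381194-27409687, minus strand, hg38) stood at 242, 270 and 230 CPM in Ctrl and 102, 139 and 107 CPM in KO nascent RNA. In total RNA it stood at 322, 293 and 327 CPM in Ctrl and 99.1, 96.0 and 97.7 CPM in KO. The groups did not overlap in either assay. The change was −1.09 ± 0.15 in nascent RNA (edgeR adjusted p = 0.0062) and −1.69 ± 0.06 in total RNA (adjusted p = 4.2e-10). Its ratio change of 0.59 ± 0.16 was not called (adjusted p = 0.085).

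Of the 15863 genes, 398 (2.51%) had a called ratio change. Nascent RNA gained on total RNA for 201 genes (1.27%) and lost for 197 (1.24%). At an unadjusted p below 0.05 there were 2579 genes. The median ratio change over all genes was 0.03, with quartiles of −0.20 and 0.25, and its median standard error of 0.24 was close to that of the nascent change (0.18) and above that of the total change (0.07). On the same genes the knockout change itself was called for 2837 in nascent RNA (17.9%; 10.3% higher and 7.63% lower) and 8917 in total RNA (56.2%; 25.8% higher and 30.4% lower). Protein-coding genes held 330 of the ratio calls (2.63% of 12565). Of the genes called in both assays, 2209 moved the same way and 40 in opposite ways, and 38 of those 40 had a called ratio change. All 398 called genes had 9 KO minus Ctrl differences in 1 assay that did not overlap the 9 in the other, a property of 1882 genes (11.9%) in all. Without 4sU-seq KO replicate 2 the count rose to 4361 of 15885 genes (27.5%), 2392 higher (15.1%) and 1969 lower (12.4%), and all 398 were among them with the same sign. The 398 made up 9.13% of the larger set, and their call with that library in the fit favours such a recovery. Under scaling by ERCC counts, where the overall median became 0.14, 7 genes were called. The highest ERCC share of a 4sU-seq library was 2.44 times the lowest. Of 64 called genes chosen by the naming rule, 29 kept their call without each single library and 5 under ERCC scaling, and no sign reversed under any setting run.

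**Figure D1:**
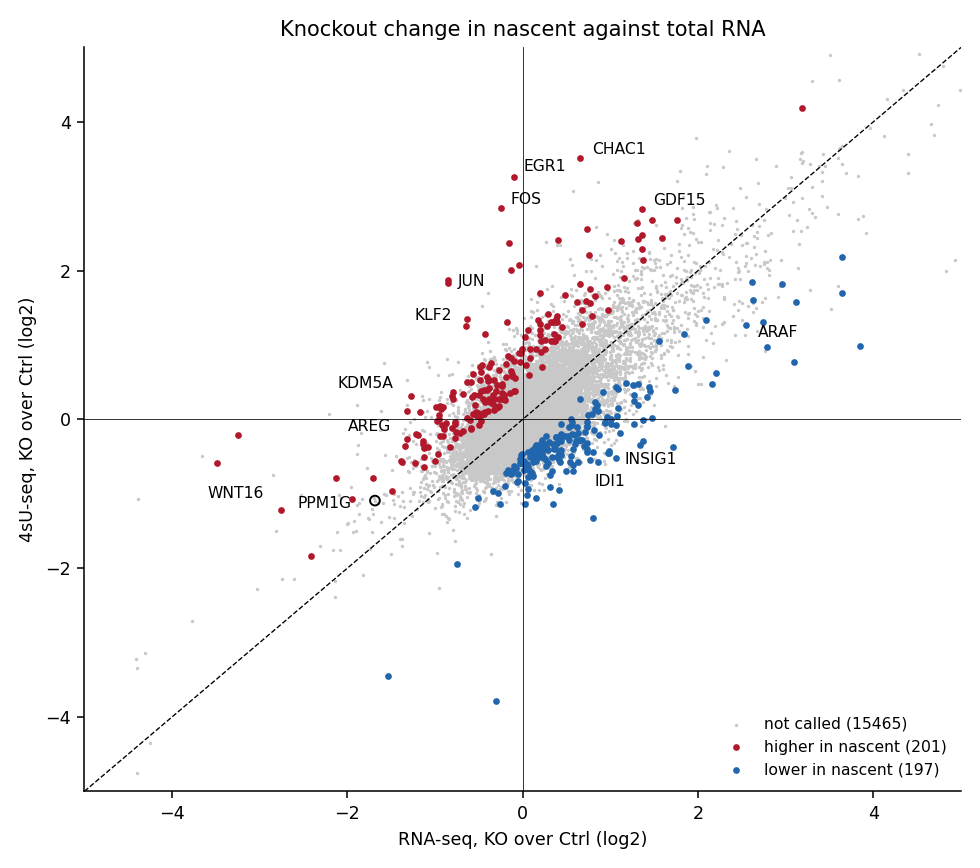
Knockout change (log2, KO over Ctrl) in RNA-seq on the horizontal axis and in 4sU-seq on the vertical axis, 1 point a gene, with 201 genes whose ratio rose in red, 197 whose ratio fell in blue and the others in grey. The dashed line marks equal change. PPM1G, circled, lies above it without being called, and 41 genes beyond 5 on either axis are not drawn.

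In both directions, the largest class was a called change in total RNA alone. Among the 201 genes whose ratio rose, the total RNA fell with no called nascent change in 86, both rose in 49, nascent RNA alone rose in 31, both fell in 18, and nascent RNA rose while total RNA fell in 17. Among the 197 whose ratio fell, total RNA rose with no called nascent change in 88, nascent RNA alone fell in 53, both rose in 22, nascent RNA fell while total RNA rose in 21, both fell in 12, and 1 had no call in either assay. Over all genes 17.9% were called in nascent and 56.2% in total RNA, with median standard errors of 0.18 and 0.07. This favours calls in total RNA alone, so no called nascent change does not mean no nascent change.

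Immediate early genes, which encode transcription factors and signal regulators switched on within minutes of a stimulus, gained nascent over total RNA in 16 members. Of 38 tested members the ratio rose in these 16 and fell in 0, and 22 were not called, with a median of 0.75 against 0.03 for all genes. The 16 were EGR1, FOS, JUN, KLF2, RHOB, ZFP36, DUSP5, CYR61, IER2, KLF4, ATF3, ZFP36L1, DUSP6, DUSP4, NR4A2 and MCL1. With each assay tested alone, 10 members rose and 6 fell in nascent RNA, and 3 rose and 26 fell in total RNA. Over all genes 10.3% rose and 7.63% fell in nascent RNA, and 25.8% rose and 30.4% fell in total RNA. Among the 16, nascent RNA rose and total RNA fell in 5, nascent RNA rose with no called total change in 3, total RNA fell with no called nascent change in 5, and both fell in 3. Without 4sU-seq KO replicate 2, 24 rose and 1 fell (median 0.72). Without RNA-seq KO replicate 2, 6 rose, and under ERCC scaling 4 did. Over all genes the ratio was called higher in 1.27% with all 12 libraries and in 15.1% without 4sU-seq KO replicate 2. It was called higher in 49 of 15994 genes without RNA-seq KO replicate 2 and in 5 of 15863 under ERCC scaling.

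Many of these transcripts carry the AU-rich core TATTTAT, in DNA letters, in the 3′ UTR. It was found in 10 of the 16 genes (62.5%), in 22 of the 36 tested members with an annotated 3′ UTR (61.1%) and in 32.4% of 11882 protein-coding genes. The stretch around the first copy in 5 of the called genes is shown, because it is the sequence by which rapid decay is best known, with each TATTTAT, or the part of it inside the stretch, in capitals and the sequences from GENCODE 29 transcripts (hg38).
FOS (chr14:75282060-75282088, plus strand): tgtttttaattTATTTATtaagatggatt
JUN (chr1:58780819-58780847, minus strand): ttgcttatgaaTATTTATaacagcattct
KLF2 (chr19:16327101-16327129, plus strand): actgtgactggTATTTATtggacccagag
ZFP36 (chr19:39409181-39409209, plus strand): aatgggcccttTATTTATgacgacttTAT
ZFP36L1 (chr14:68788336-68788364, minus strand): ttatcaaaacgTATTTATtgccaaactat
FOS held 2 copies, JUN and KLF2 held 1, and ZFP36 and ZFP36L1 held 3. A match describes the letters and is not a measured decay site.

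EGR1, a zinc finger transcription factor induced by growth factors and stress (chr5:138465490-138469315, plus strand), had the highest called ratio change among genes with a mean log2 CPM of 2 or more in each assay. In nascent RNA it stood at 8.60, 9.56 and 7.89 CPM in Ctrl and 93.2, 79.9 and 75.8 CPM in KO. In total RNA it stood at 38.8, 32.7 and 31.2 CPM in Ctrl and 30.8, 32.0 and 33.5 CPM in KO. The nascent groups were far apart and the total groups overlapped. Its ratio change was 3.35 ± 0.17 (edgeR adjusted p = 7.6e-06), made of 3.26 in nascent RNA and −0.10 in total RNA, the latter not called (adjusted p = 0.30).

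The EGR1 promoter holds a pair of CArG boxes, to which serum response factor is known to bind. They stand in capitals here, in the plus strand upstream of the RefSeq start (chr5:138465344-138465435, GRCh38.p14).
EGR1: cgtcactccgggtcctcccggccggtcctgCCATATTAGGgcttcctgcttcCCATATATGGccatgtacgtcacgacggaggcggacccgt
Searched on both strands of the 250 bases before the start, the CArG box was in 2 of 25 immediate early promoters found in the RefSeq table (EGR1 and SRF) and in 1.14% of 27305 promoters. Among the 11 found for the called members, EGR1 alone held it.

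FOS and JUN encode the partners of the AP-1 factor. FOS stood at 5.86, 5.96 and 4.69 CPM in Ctrl and 52.6, 35.7 and 30.2 CPM in KO nascent RNA, and at 9.24, 8.24 and 9.21 CPM in Ctrl and 7.52, 6.82 and 8.13 CPM in KO total RNA. All KO libraries lay above Ctrl in nascent RNA and below Ctrl in total RNA. JUN (chr1:58780788-58784327, minus strand) stood at 4.87, 5.19 and 3.95 CPM in Ctrl and 20.8, 17.8 and 12.9 CPM in KO nascent RNA. Its total RNA went from 21.2, 19.4 and 19.4 CPM to 11.5, 11.1 and 10.7 CPM, so the assays moved in opposite directions. The ratio change was 3.09 ± 0.27 for FOS and 2.72 ± 0.23 for JUN (edgeR adjusted p = 8e-04 for each).

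KLF2, a Krüppel-like factor, showed the same opposition at a smaller size. Nascent RNA was 10.0, 11.1 and 8.65 CPM in Ctrl and 23.1, 30.6 and 17.5 CPM in KO, and total RNA was 31.3, 25.2 and 26.8 CPM in Ctrl and 16.6, 18.5 and 18.1 CPM in KO. The groups did not overlap in either assay, and the ratio rose by 1.91 ± 0.26 (edgeR adjusted p = 0.0054). EGR1, FOS, JUN, KLF2 and the glutathione-degrading enzyme gene CHAC1 kept their call under all 26 alternative settings, ERCC scaling and each left-out library included.

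Genes for proteins that bind AU-rich elements were among the called members. ZFP36 encodes tristetraprolin, which brings the deadenylation machinery to such elements, and ZFP36L1 encodes its relative. ZFP36 stood at 20.4, 22.5 and 17.6 CPM in Ctrl and 33.8, 41.5 and 26.6 CPM in KO nascent RNA, and at 55.1, 46.5 and 47.8 CPM in Ctrl and 39.7, 38.2 and 38.6 CPM in KO total RNA. Its ratio rose by 1.11 ± 0.21 (edgeR adjusted p = 0.025). ZFP36L1 fell in both assays, by 1.07 in nascent and by 1.95 in total RNA, and its ratio rose by 0.88 ± 0.17 (adjusted p = 0.022). Both calls were lost under ERCC scaling and without any of several single libraries (9 for ZFP36 and 8 for ZFP36L1). Over the whole list of 30 regulators of AU-rich elements and RNA stability, the ratio rose in these 2 and fell in 0. The shares of all genes were 1.27% and 1.24%. In total RNA 19 members fell, against 30.4% of all genes. TOB1, which encodes an adaptor of the CCR4-NOT deadenylase, was the only 1 of 18 deadenylase genes with a called ratio change (0.70 ± 0.12, nascent 0.73, total 0.03); the call was lost without any of 5 single libraries, under ERCC scaling, with library size alone and with no filter, and TOB1 overlaps TOB1-AS1 on the other strand. None of 19 decapping and 5′ decay genes, 21 exosome genes or 15 m6A genes was called.

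**Figure D2:**
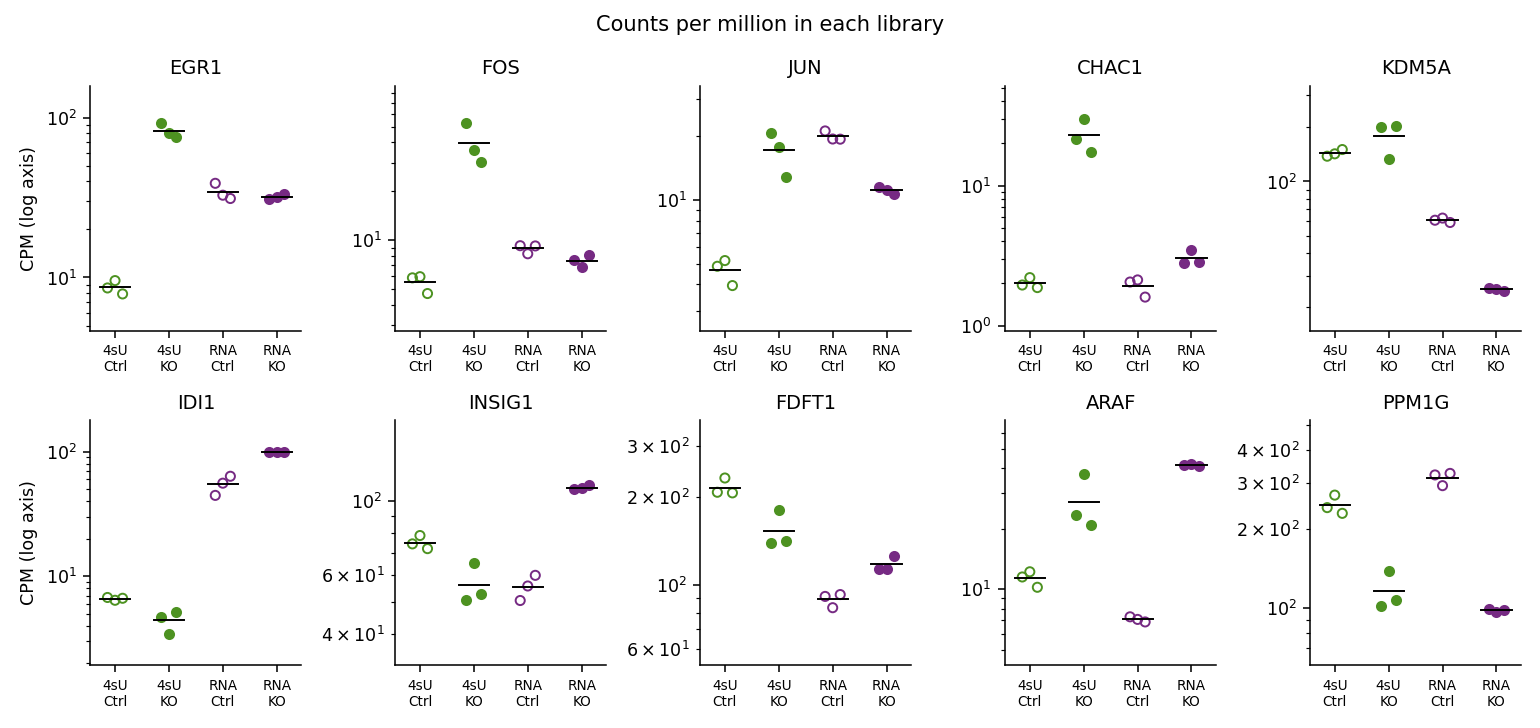
CPM on a log axis in each of the 12 libraries for 10 genes, with open circles for Ctrl, filled circles for KO, green for 4sU-seq, purple for RNA-seq and a bar at the mean of 3 libraries. EGR1 and FOS differ between Ctrl and KO by far more in 4sU-seq than in RNA-seq, while IDI1, INSIG1 and FDFT1 go down in 4sU-seq means and up in RNA-seq.

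Some genes of growth factor and protease control, drawn from a list of AU-rich mRNAs, fell in total RNA with no called change in nascent RNA. AREG, which encodes the EGF receptor ligand amphiregulin (chr4:74445134-74455009, plus strand), stood at 128, 126 and 147 CPM in Ctrl and 165, 118 and 150 CPM in KO nascent RNA. Its total RNA was 183, 172 and 185 CPM in Ctrl and 70.0, 71.2 and 74.3 CPM in KO. The nascent groups overlapped and the total groups did not. The ratio rose by 1.43 ± 0.16 (edgeR adjusted p = 0.0027). PLAUR, the urokinase receptor, had a ratio change of 0.96 ± 0.15 with a nascent change of −0.02 and a total change of −0.98. They were among the 3 called of 24 tested members, all 3 higher (1.27% over all genes), and the list's median was 0.35. ERCC scaling ended the calls of AREG and PLAUR.

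Among single genes outside the lists, KDM5A and COL17A1 had a called fall in total RNA alone, and WNT16, MRC2 and JDP2 changed in both assays. KDM5A, a histone H3 lysine 4 demethylase (chr12:280129-389454, minus strand), stood at 138, 142 and 150 CPM in Ctrl and 201, 133 and 204 CPM in KO nascent RNA. In total RNA it went from 61.0, 62.6 and 59.2 CPM to 25.8, 25.2 and 24.8 CPM. KO replicate 2 of 4sU-seq was the one below Ctrl, the nascent groups overlapped, and the ratio rose by 1.59 ± 0.19 (edgeR adjusted p = 0.0034). The gene overlaps CCDC77 on the other strand, and since no strand setting is given, reads of the 2 cannot be told apart. WNT16, a WNT ligand, fell in both assays, from 84.6, 84.6 and 87.2 CPM to 37.8, 30.7 and 42.1 CPM in nascent RNA and from 170, 194 and 203 CPM to 27.4, 28.1 and 28.3 CPM in total RNA. The fall was the larger in total RNA, and the ratio rose by 1.55 ± 0.16 (adjusted p = 0.0019). COL17A1, a hemidesmosome collagen gene, had a ratio change of 1.27 ± 0.29, from 0.10 in nascent and −1.17 in total RNA, and MRC2, a collagen-binding endocytic receptor, of 1.18 ± 0.15, from 0.60 and −0.57. JDP2, a repressor of AP-1, rose by 1.41 in nascent RNA and by 0.29 in total RNA (ratio change 1.12 ± 0.13). COL17A1 lost its call without any of 11 single libraries, and ERCC scaling ended the calls of all 5 genes of this paragraph. The ratio changes under that scaling were 1.79 for KDM5A, 1.72 for WNT16, 1.47 for COL17A1, 1.27 for MRC2 and 1.26 for JDP2.

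Genes induced by ATF4, the transcription factor of the amino acid and integrated stress response, gained nascent over total RNA. Of 24 tested members the ratio rose in 10 and fell in 0, and 14 were not called, with a median of 0.64. The 10 were CHAC1, GDF15, DDIT3, ASNS, SESN2, STC2, PSAT1, PHGDH, CEBPG and SLC7A1. Both assays rose in 6 of them, nascent RNA alone rose in 1, and total RNA fell with no called nascent change in 3. With 4sU-seq KO replicate 2 left out, 15 rose. Without RNA-seq KO replicate 2, 5 did, and under ERCC scaling 1 did. The share called higher over all genes was 1.27% with all 12 libraries and 15.1% without 4sU-seq KO replicate 2. It was 49 of 15994 genes without RNA-seq KO replicate 2 and 5 of 15863 under ERCC scaling.

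CHAC1 (chr15:40952962-40956519, plus strand) showed the largest value of the list. It stood at 1.95, 2.20 and 1.87 CPM in Ctrl and 21.4, 29.6 and 17.5 CPM in KO nascent RNA, and at 2.05, 2.12 and 1.6 CPM in Ctrl and 2.82, 3.45 and 2.85 CPM in KO total RNA. The KO libraries were above Ctrl in both assays, and the ratio rose by 2.85 ± 0.28 (edgeR adjusted p = 0.0016). GDF15, a stress cytokine also induced by p53, went from 19.1, 21.4 and 15.9 CPM to 123, 179 and 97.8 CPM in nascent RNA and from 37.7, 34.5 and 38.3 CPM to 92.6, 94.0 and 96.8 CPM in total RNA. It too rose in both, more in nascent RNA, by a ratio change of 1.46 ± 0.26 (adjusted p = 0.019, lost without any of 7 single libraries and under ERCC scaling). ASNS, asparagine synthetase, rose by 1.3 in nascent and by 0.35 in total RNA (ratio change 0.95 ± 0.13). DDIT3, the transcription factor CHOP, rose by 1.26 and by 0.28 (0.98 ± 0.14), and it overlaps MARS and MBD6 on the other strand. STC2, a secreted glycoprotein gene, had 0.39 in nascent and −0.48 in total RNA (0.87 ± 0.13).

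Neighbouring stress lists held fewer calls. HERPUD1, an ER-associated degradation factor, was the 1 called of 24 genes of the unfolded protein response (ratio change 0.94 ± 0.10, nascent 1.13, total 0.19). Among 26 tested p53 targets the ratio rose in 6 and fell in 0, against 1.27% and 1.24% of all genes. GDF15 and SESN2, of these 6, are also in the ATF4 list. GADD45A, a growth arrest gene, had 0.46 in nascent and −0.30 in total RNA, and PLK2, a polo-like kinase gene, −0.51 and −1.13. TNFRSF10B, the TRAIL receptor, had 0.35 and −0.15. Their calls were lost without any of 2 single libraries for PLK2 and 8 for TNFRSF10B, and GADD45A kept its call without each. SPATA18, a mitochondrial quality control gene named here after its values were seen, was the sixth: it fell from 2.52, 2.21 and 2.17 CPM to 0.259, 0.196 and 0.240 CPM in nascent RNA and from 1.10, 1.25 and 0.831 CPM to 0.00, 0.00 and 0.0310 CPM in total RNA. Total RNA in KO lies below the floor of 3 counts, so its fitted ratio change depends on the prior count and is not given. Of 22 transcripts known to be targets of nonsense-mediated decay, the ratio rose in 5 and fell in 1, with a list median of 0.00. CARS, ASNS, DDIT3, ATF3 and GADD45A rose and ZFAS1 fell. ASNS and DDIT3 are also in the ATF4 list, ATF3 in the immediate early list, GADD45A in the p53 list and ZFAS1 in the snoRNA host list. None of 18 genes for factors of that decay pathway was called.

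Cholesterol synthesis genes and other targets of SREBP, the transcription factors that answer to sterol levels, went the other way. Of 27 tested members the ratio fell in 6 and rose in 0, and 21 were not called, with a median of −0.47. Among the 6 were IDI1, INSIG1, FDFT1, HMGCS1 and SQLE. In each of the 6, total RNA rose with no called nascent change. Over the whole list 18 members rose and 2 fell in total RNA, against 25.8% and 30.4% of all genes. In nascent RNA 0 rose and 1 fell, against 10.3% and 7.63%. Without 4sU-seq KO replicate 2 the ratio fell in 18. Without RNA-seq KO replicate 2 it fell in 3, and under ERCC scaling in 0. The share called lower over all genes was 1.24% with all 12 libraries and 12.4% without 4sU-seq KO replicate 2. It was 37 of 15994 genes without RNA-seq KO replicate 2 and 2 of 15863 under ERCC scaling. The list median stayed between −0.54 and −0.34 over the alternative settings.

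INSIG1, which encodes the ER protein that holds SREBP back (chr7:155297776-155310235, plus strand), stood at 74.3, 78.7 and 72.0 CPM in Ctrl and 50.5, 65.2 and 52.7 CPM in KO nascent RNA. In total RNA it went from 50.4, 55.7 and 59.9 CPM to 108, 109 and 111 CPM. The KO libraries were below all Ctrl libraries in nascent RNA and above them in total RNA. The nascent change of −0.42 was not called (edgeR adjusted p = 0.077), the total change was 0.99 (adjusted p = 1.1e-07), and the ratio fell by 1.40 ± 0.15 (adjusted p = 0.0022).

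IDI1, isopentenyl-diphosphate isomerase, went from 6.75, 6.41 and 6.65 CPM to 4.72, 3.43 and 5.12 CPM in nascent RNA and from 44.5, 55.7 and 63.3 CPM to 98.3, 98.2 and 99.9 CPM in total RNA. Its ratio change was −1.44 ± 0.21 (edgeR adjusted p = 0.0084), with groups apart in both assays. FDFT1, squalene synthase, went from 208, 233 and 207 CPM to 139, 181 and 141 CPM in nascent RNA and from 91.0, 83.2 and 92.3 CPM to 113, 113 and 126 CPM in total RNA. All KO libraries lay below Ctrl in nascent RNA and above Ctrl in total RNA. Its ratio change was −0.90 ± 0.16 (adjusted p = 0.016), and the call was lost without any of 5 single libraries.

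The promoter of INSIG1 holds 1 CCAAT box, the letters CCAAT on either strand, to which NF-Y is known to bind beside SREBP. It is shown in capitals in the plus strand, where it reads as its complement (chr7:155297678-155297742, GRCh38.p14, RefSeq).
INSIG1: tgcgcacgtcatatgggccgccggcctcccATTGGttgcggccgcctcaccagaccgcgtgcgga
In the 250 bases before the start CCAAT was found in 16 of 20 promoters of the list that the RefSeq table holds (80.0%), in 13 of 21 of the ATF4 list (61.9%), in 12 of 25 of the immediate early list (48.0%) and in 33.0% of 27305 promoters. The sterol element TCACNCCAC was in 1 of the 20 (SREBF2) and in 0.875% of all, and the cyclic AMP element TGACGTCA in 0 of the 20, 0 of the 21, 3 of the 25 and 1.77% of all. No match says only that these letters are absent from this window.

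Other genes whose ratio fell were mostly moderate in size. ARAF, a RAF kinase gene on the X chromosome (chrX:47561100-47571920, plus strand), rose in both assays, from 11.5, 12.2 and 10.2 CPM to 23.4, 37.6 and 20.8 CPM in nascent RNA and from 7.29, 7.08 and 6.87 CPM to 41.7, 42.1 and 41.0 CPM in total RNA. All KO libraries were above Ctrl, and the ratio changed by −1.28 ± 0.26 (edgeR adjusted p = 0.030, lost without any of 10 single libraries). FGD1, an exchange factor for CDC42, went from 28.9, 27.5 and 24.6 CPM to 30.3, 38.5 and 31.0 CPM in nascent RNA and from 6.34, 5.73 and 5.79 CPM to 16.6, 15.2 and 16 CPM in total RNA. Its ratio changed by −1.12 ± 0.16 (adjusted p = 0.0066), and it overlaps TSR2 on the other strand. PRELID3A, of a family of mitochondrial lipid transfer proteins, went from 45.4, 43.5 and 40.7 CPM to 24.3, 28.95 and 24 CPM in nascent RNA and from 5.73, 6.24 and 6.01 CPM to 7.63, 7.60 and 6.98 CPM in total RNA. The assays moved in opposite directions, with no overlap of groups in either, and the ratio changed by −1.05 ± 0.14 (adjusted p = 0.0052).

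PNPLA3, a lipid droplet acyl hydrolase gene, also fell in nascent and rose in total RNA (−0.49 and 0.55, ratio change −1.04 ± 0.21), and it overlaps SAMM50 on the same strand. LRR1, a leucine-rich repeat gene that overlaps RPS29, had −0.70 and 0.34 (−1.03 ± 0.13). The call of PNPLA3 was lost without any of 9 single libraries, and ERCC scaling ended those of ARAF, FGD1, PRELID3A, PNPLA3 and LRR1. TWIST1, a mesenchymal transcription factor, was low: 1.6, 1.65 and 1.55 CPM became 2.76, 2.46 and 2.94 CPM in nascent RNA, and 0.195, 0.239 and 0.416 CPM became 2.16, 2.44 and 2.54 CPM in total RNA. Its ratio changed by −2.33 ± 0.27 (edgeR adjusted p = 0.0031).

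Growth-related lists leaned towards a lower ratio with few calls. Among 37 genes of G1/S and DNA replication the ratio fell in 4 and rose in 0 (median −0.32), and 35 of the 37 values were below 0. Over all genes it fell in 1.24% and rose in 1.27%. GINS1 and GINS4, subunits of the replicative helicase, had nascent changes of −0.57 and −0.72 and total changes of 0.13 and −0.12. ORC6, of the origin recognition complex, had −0.74 and −0.05, and PRIM1, the primase subunit, −0.46 and 0.17. Among 73 cytosolic ribosomal protein genes the ratio fell in 3 and rose in 0 (median −0.22): RPL21 by 0.57 ± 0.13, RPS24 by 0.52 ± 0.10 and RPL37 by 0.46 ± 0.10. Genes that host snoRNAs in their introns, which belong to the same growth-regulated class of mRNAs, gave 3 lower and 0 higher of 26 (median −0.23), with ZFAS1 at −0.76 ± 0.10, SNHG6 at −0.62 ± 0.14 and SNHG5 at −0.54 ± 0.11. ZFAS1 stood at 649, 675 and 625 CPM in Ctrl and 431, 488 and 448 CPM in KO nascent RNA, and at 55.4, 57.6 and 58.1 CPM in Ctrl and 68.9, 67.2 and 66.9 CPM in KO total RNA. Ribosomal protein genes have many processed copies, and host genes overlap others, so their counts are less certain.

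These growth lists depended on single libraries. Of the members named, ZFAS1 kept its call without each single library, and the others lost it without any of 6 to 11. Without 4sU-seq KO replicate 2 the ratio fell in 27 of 37 G1/S, 45 of 73 ribosomal protein and 15 of 26 host genes. Without RNA-seq KO replicate 2 it fell in 0, 0 and 1. Over all genes it fell in 1.24% with all 12 libraries, 12.4% without the first and 37 of 15994 without the second. Under ERCC scaling 0 members of these 3 lists were called, against 7 of 15863 genes. The list medians stayed below 0 under every setting run. Of 30 G2/M genes 0 were called (median −0.07, and 0.01 at the highest over the settings), although 24 fell in total RNA and 9 in nascent RNA. The shares of all genes that fell were 30.4% and 7.63%.

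**Figure D3:**
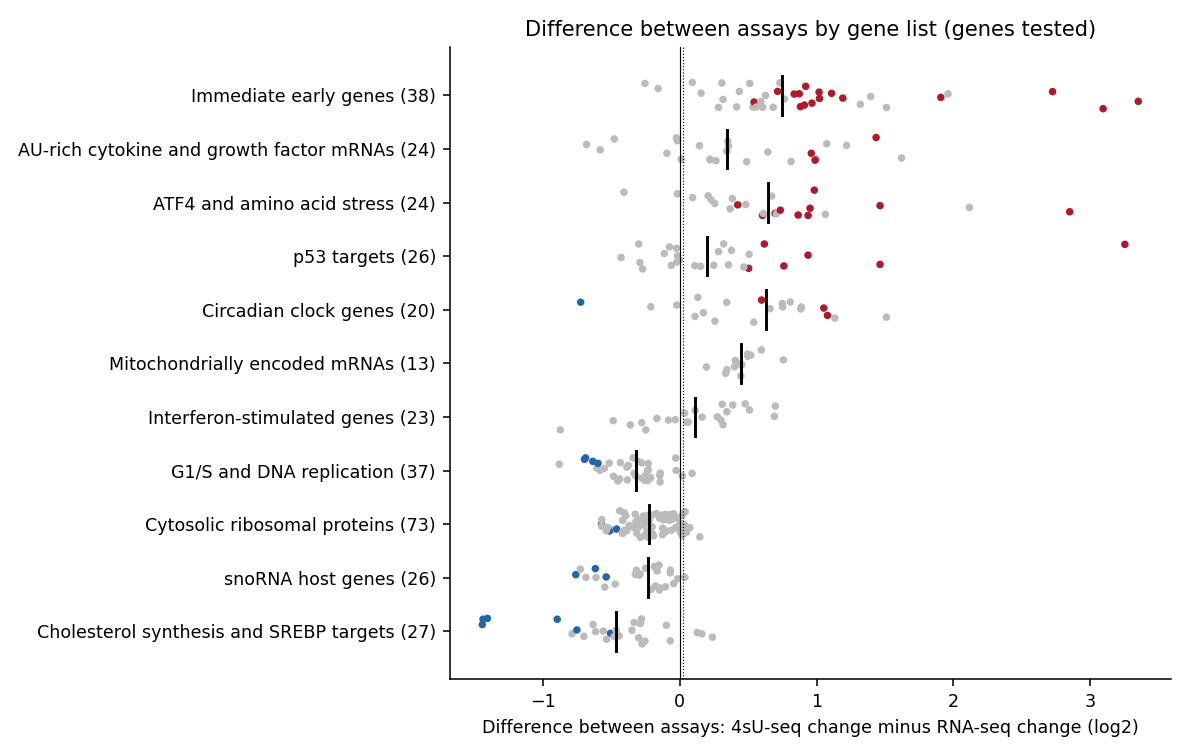
Ratio change (log2) of every tested member of 11 gene lists, 1 point a gene, red or blue where called and grey where not, with a bar at the list median and the number tested in brackets. The dotted line is the median of all genes, 0.03. Immediate early and ATF4 genes lie mostly to its right and cholesterol genes mostly to its left.

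Clock genes were called in both directions. Of 20 tested members the ratio rose in 3, fell in 1 and was not called in 16, with a median of 0.63. With all 12 libraries it rose in 1.27% and fell in 1.24% of all genes, whose median was 0.03. PER2, a repressor of the clock, stood at 70.7, 71.0 and 63.8 CPM in Ctrl and 76.6, 84.9 and 69.7 CPM in KO nascent RNA, and at 64.8, 59.9 and 62.5 CPM in Ctrl and 34.9, 33.4 and 31.4 CPM in KO total RNA. The nascent groups overlapped, the total groups did not, and the ratio rose by 1.08 ± 0.13 (edgeR adjusted p = 0.0034). PER3 gave 1.05 ± 0.18, from −0.26 in nascent and −1.32 in total RNA, and CRY2 0.60 ± 0.14, from 0.00 and −0.60. ARNTL, the activator BMAL1, went the other way (−0.72 ± 0.13, nascent −0.67, total 0.05). The call was lost without any of 10 single libraries for CRY2, 4 for ARNTL and 3 for PER3. PER2 and PER3 overlap genes on the other strand. Leaving out 4sU-seq KO replicate 2, 13 members rose and 1 fell, against 15.1% and 12.4% of all genes. Without RNA-seq KO replicate 2, 1 rose, and under ERCC scaling 0 were called. For all genes, 49 of 15994 rose in the first setting and 7 of 15863 were called in the second.

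Mitochondrially encoded mRNAs and interferon-stimulated genes had no called ratio change. All 13 mitochondrial mRNAs had values above 0, from 0.20 to 0.76 (median 0.45). In total RNA 12 fell, against 30.4% of all genes, while 0 were called in nascent RNA, against 17.9%. In the fit without 4sU-seq KO replicate 2, 7 of the 13 were called higher, against 15.1% of all genes. Of 23 interferon-stimulated genes, 14 rose in nascent and 19 in total RNA, against 10.3% and 25.8% of all genes. Their median ratio change was 0.11. CDH1, which encodes E-cadherin, rose more in nascent RNA (1.05) than in total RNA (0.37), with a ratio change of 0.68 ± 0.11 (edgeR adjusted p = 0.011), and CTNNA1, its partner alpha-catenin, had 0.15 and −0.30 (0.45 ± 0.09). NDRG1, a hypoxia-induced gene, rose by 1.28 in nascent and by 0.20 in total RNA (1.08 ± 0.18). PDP1, a mitochondrial relative of PPM1G, was the 1 called of 19 PPM family genes (0.78 ± 0.16, nascent 0.65, total −0.14). The call was lost without any of 10 single libraries for CTNNA1, 9 for PDP1 and 1 for NDRG1, and ERCC scaling ended those of CDH1, CTNNA1, NDRG1 and PDP1. Of 331 genes named ZNF, 3 were higher and 4 lower, shares of 0.906% and 1.21%, against 1.27% and 1.24% of all genes.

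With all 12 libraries, the median ratio change rose with gene span from 10 kb upwards. The median was −0.01 for 4093 genes under 10 kb, −0.04 from 10 to 30 kb, 0.03 from 30 to 100 kb, 0.21 from 100 to 300 kb and 0.40 for 480 genes over 300 kb. The nascent change carried this rise, with medians from −0.03 under 10 kb to 0.48 over 300 kb, while total RNA went from 0.01 to 0.08. The share of genes called higher was 0.855% under 10 kb and 2.71% over 300 kb, and the shares called lower were 0.684% and 0.833%. Without 4sU-seq KO replicate 2 the medians ran from −0.20 to 0.65, and under ERCC scaling from 0.06 to 0.63. Without 4sU-seq KO replicate 3 the step was smaller, with 0.09 under 10 kb and 0.23 over 300 kb, and without KO replicate 1 these were 0.06 and 0.28. These are medians of many genes in the same 12 libraries and have no test. Between libraries, with the variances of the 4 groups added, the class median had an SD of 0.213 under 10 kb and 0.653 over 300 kb. The second SD exceeds the median of 0.40, but it describes single libraries and is not the error of groups of 3.

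**Figure D4:**
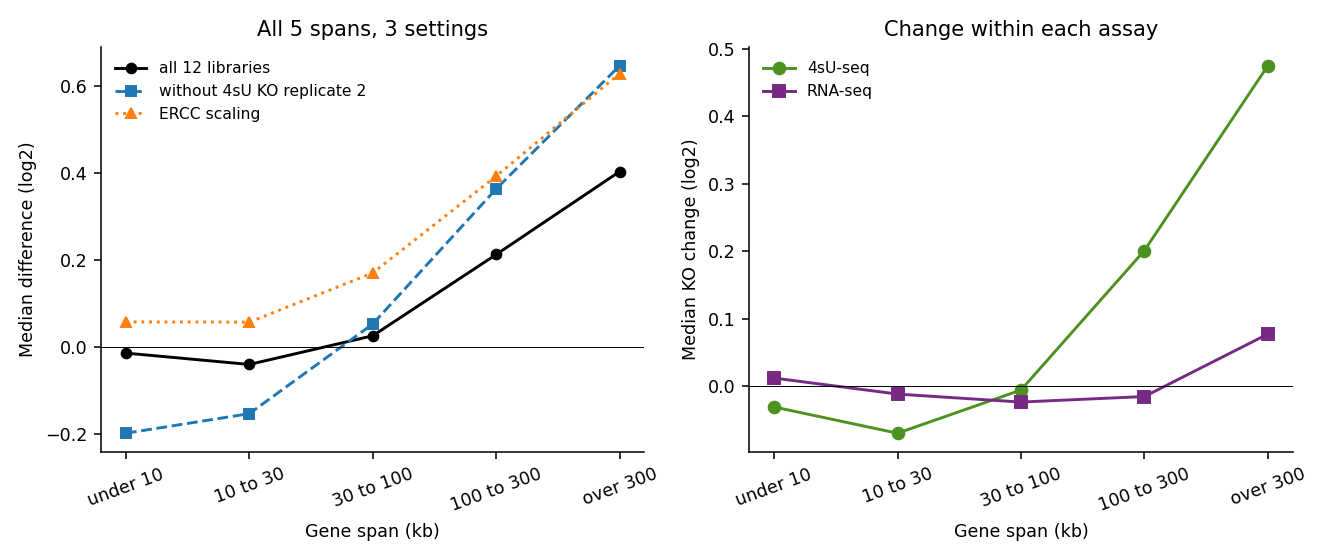
Median change (log2) by gene span in kb, in 5 classes. On the left is the ratio change with all 12 libraries, without 4sU-seq KO replicate 2 and under ERCC scaling; on the right is the knockout change in each assay. The left curves rise to 0.40, 0.65 and 0.63 over 300 kb.

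Other gene features were compared with all 12 libraries. By 3′ UTR length the median went from 0.00 for the 2973 genes with the shortest to 0.12 for the 2971 with the longest, and by TATTTAT copies from 0.01 with none to 0.18 with 3 or more. Within those 2971 the same step was 0.07 to 0.18. These steps were wider without 4sU-seq KO replicate 2, from −0.14 to 0.18 by length, from −0.09 to 0.33 by copies and from 0.05 to 0.36 by copies within the 2971. By GC content of the transcript, the median was 0.14 for the 3018 genes lowest in GC and 0.01 for the 3018 highest, and 0.32 and −0.22 without that library. TATTTAT was in 45.0% of 180 genes called higher and 23.7% of 135 called lower, whose median 3′ UTR lengths were 1680 and 1054 bases, against 1089 over all. By exon number the share called higher was 2.85% for 2 to 4 exons, and 0.941% to 1.64% in the other classes. The genes with the highest nascent-to-total ratio over all libraries (the top 20%) held 99 of the 197 lower calls, with 3.12% of its genes called lower and 1.67% higher. The median was −0.09 for long intergenic RNAs, −0.16 for antisense genes and 0.04 for protein-coding genes. Long intergenic RNAs were called lower in 2.90% and higher in 0.603% of 829, and genes typed antisense in 2.03% and 0.119% of 838. Whether reads of antisense genes come from their partners cannot be told apart without a stated strand setting.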

How the data were processed

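The authors deposited 2 tables of raw gene counts, 1 for 4sU-seq and 1 for RNA-seq, of 56104 gene IDs plus 92 ERCC species each. The tools, per the submitters' processing notes, were FastQC 0.11.2, HISAT2 2.1.0 on hg38, SAMtools 1.3 and featureCounts. Which annotation, strand setting and RNA-seq protocol applied is not given in the sources used here. A repeated header line was dropped from each.

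Genes passing filterByExpr (minimum count 10) in both assays were kept. ERCC counts were left out and TMM factors were set within each assay, so levels of the assays are not on 1 scale. The interaction was tested with edgeR 4.0.16 (quasi-likelihood F test) in R 4.3.3, two-sided, with Benjamini-Hochberg adjustment. Its standard error was taken as change over root F. One dispersion trend covered both assays. Each assay was also fitted alone. Alternatives used limma 3.58.1 and DESeq2 1.42.0. The labels call the 4sU-seq dishes biological replicates and say nothing of the RNA-seq cultures, where p-values measure only the spread between these samples. A floor of 3 counts equals 0.0301 to 0.0959 CPM, depending on the library (counting error only).

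Named genes are PPM1G; the 8 highest and 8 lowest called ratio changes whose mean log2 CPM reached 2 in both assays and 9 pairwise differences that do not overlap; up to 4 from each class of assay-specific change; and from gene lists with at least 3 called members up to 4 with the smallest p, from others at most 2. Some genes that the rule names are not reported here. Full enumerations of called list members go beyond this rule. Members, lists and tests were chosen with earlier results of these data known, and the motifs after list results were seen. Gene spans, 3′ UTRs and sequences came from GENCODE 29, which matched 52849 IDs, and promoters from RefSeq (GRCh38.p14; the first listed start, 250 bases). The fit was tested on simulated counts of 15863 genes: of 50 genes planted at each size, it called 46 at a log2 ratio change of 2 and 21 at 1, with 9 false calls. The simulation gave no library a shift common to many genes.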

Additional observations from a re-analysis of the deposited data

Results flagged for a closer look

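The knockout change differed between nascent and total RNA for 398 genes, by the test of the interaction itself.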

How the results depend on the processing

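The count of 398 called ratio changes (201 higher, 197 lower) moved by over 1.5 times under several settings. It was 7 (5 and 2) under ERCC scaling, 190 (76 and 114) with no filter on low counts, 1119 (526 and 593) with the DESeq2 Wald test, 7843 (4003 and 3840) with limma voom and library weights, 25 (13 and 12) with a fold threshold of 0.5 (log2), and 3928 (2266 and 1662) with both 4sU-seq libraries numbered 2 left out. Chosen after seeing the data, a sum of the counts of RNA-seq KO replicates 1 and 2, used as 1 sample, gave 108 (59 and 49). The weight of 4sU-seq KO replicate 2 in the voom fit was 0.0331. Library size alone gave 387 (115 and 272), with a median of all genes of −0.07, and removing the trend with gene span gave 581 of 15218 (285 and 296). Leaving out 1 library gave 86 to 4361 called genes, 49 to 2392 higher and 37 to 1969 lower. The 4361 came without 4sU-seq KO replicate 2 and the 86 without RNA-seq KO replicate 2. With any 4sU-seq Ctrl library, 4sU-seq KO replicate 1 or any RNA-seq library left out, the count stayed at 227 or below. Fewer libraries enter these fits.

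Deviations of same-numbered Ctrl and KO libraries correlated at −0.12, 0.84 and 0.81 in 4sU-seq and 0.00, 0.11 and 0.17 in RNA-seq. Unlike numbers in 4sU-seq also correlated, Ctrl replicate 3 with KO replicates 1 and 2 at 0.72 and −0.83. For Ctrl replicate 2 with KO replicates 1 and 3 the values were −0.74 and −0.80. Deviations from a mean of 3 libraries sum to 0, so these values depend on each other and do not by themselves show pairing by number. In 4sU-seq, Ctrl replicate 1 correlated best with KO replicate 2 (0.18). The labels do not say that a number marks a shared culture. With a replicate block within each assay 657 genes were called (343 and 314).

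With class limits of 0.3 and 0.75 in place of 0.5 and 1, genes whose total RNA fell with nascent RNA near 0 went from 12 to 26, and those whose nascent RNA fell with total RNA near 0 from 6 to 12. The other 4 classes stayed within 1.5 times. Over single left-out libraries, the median ratio change ran from −0.20 to 0.09 under 10 kb and from 0.23 to 0.65 over 300 kb. Each value lay within 1 SD of the class median between libraries, with the variances of the 4 groups added (0.213 and 0.653). Leaving out 1 of 3 libraries can move a group mean only by part of that SD, so this does not show stability. The cause of these shifts was not tested.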

Other observations

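By class, 32 called genes rose by at least 1 (log2) in nascent RNA with total RNA within 0.5, and 25 rose by at least 1 in total RNA with nascent RNA within 0.5. In the second class, ADORA1, an adenosine receptor gene, went from 11.7, 12.2 and 11.2 CPM in Ctrl to 14.4, 19.2 and 14.9 CPM in KO nascent RNA and from 2.73, 2.72 and 2.85 CPM to 7.16, 6.15 and 6.58 CPM in total RNA. LIPG, endothelial lipase, went from 9.35, 9.46 and 8.76 CPM to 11.2, 13.7 and 11.6 CPM and from 4.02, 3.52 and 3.52 CPM to 8.46, 7.73 and 7.32 CPM. C1orf61 fell by 1.14 in nascent RNA and by 0.25 in total RNA. Their ratio changes were −0.79 ± 0.17, −0.68 ± 0.16 and −0.89 ± 0.17, and the calls were lost without any of 11 single libraries for ADORA1 and LIPG and 8 for C1orf61. The zinc finger gene ZNF516 rose in both assays, by 2.43 and 1.59, and ZNF217 fell in both, by 0.39 and by 1.13, and the ratio call of ZNF516 was lost without any of 8 single libraries. MUC13, a cell surface mucin, was low in every library, with at most 1.07 CPM, and its ratio rose by 2.68 ± 0.42. CLDN5, an endothelial marker, was at most 1.03 CPM, and its ratio changed by −1.26 ± 0.25, a call lost without any of 10 single libraries. Of 21 mitochondrial tRNA genes 2 were called higher, with a median of 0.50, against 1.27% and 0.03 over all genes.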
